A study of Mus musculus with 6 samples.

Results

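The genes described here are 9 members of the JAK-STAT pathway, chosen by symbol: the transcription factor genes Stat2, Stat3, Stat4, Stat5a, Stat5b and Stat6, and the feedback inhibitor genes Socs1, Socs3 and Cish. They are 9 of 52999 gene symbols listed, and all 9 passed the filter on low counts. Poly-A RNA came from left sciatic nerves cut through at mid-thigh (axotomy) and was taken, 24 h later, from the proximal stump, the piece still joined to the dorsal root ganglia. The series compared 3 male with 3 female libraries of C57BL/6 mice aged 6 to 8 weeks, and both groups had been operated in the same way. Each library was a pool of 2 mice, so p-values measure the spread between pools. The values are levels in cut nerve, and uncut nerve was not analysed here.

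STAT proteins wait in the cytoplasm until a cytokine receptor recruits JAK kinases, which phosphorylate them. The activated STATs pair, enter the nucleus and bind short palindromic DNA elements. The SOCS and CIS proteins are made in response and shut the receptor down. In injured peripheral nerve, cytokines that signal through the gp130 receptor chain are known to activate STAT3 in axons and Schwann cells, and activated STAT3 can travel to the cell body as an injury signal.

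The libraries held between 49158283 and 69848769 estimated counts. Xist, the RNA that silences an X chromosome in females, had 193, 6 and 16 counts in males 1, 2 and 3 and 32181, 40851 and 26310 in females 1, 2 and 3. The Y-linked gene Ddx3y had 3743, 2268 and 2785 counts in the males and 0, 0 and 139 in the females, and Eif2s3y had 3680, 3320 and 2922 counts in the males and 0, 0 and 147 in the females. Kdm5d, also Y-linked, had 1209, 944 and 944 counts in the males and 43, 51 and 83 in the females. Male 1 and female 3 thus each held a small number of counts from genes of the other sex, and the 9 genes and the called pathway genes are also given without these libraries. Schwann cell markers summed to 34202 to 41539 TPM (a level corrected for transcript length and scaled to an equal total per library) in males and to 15745 to 20714 TPM in females, and 4 of the 9 passed the test. Central nervous tissue markers were low, at 8.90 to 21.9 TPM in males and 1.42 to 2.56 TPM in females, and 8 of the 9 passed. Macrophage markers summed to 712 to 1212 TPM in males and 776 to 1448 TPM in females, with 0 of 7 called. Skeletal muscle markers set single libraries apart, at 6.42, 5.93 and 572 TPM in males and 171, 410.3 and 16.6 TPM in females, and 2 of the 8 tested passed, both lower in males. Over all tested genes, 5.30% passed, 3.84% as higher and 1.46% as lower in males. The part of these cell types in the results below was not tested. In bulk tissue, fewer cells of a type and less RNA per cell cannot be told apart.

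The promoters of the inhibitor genes are shown first, because STAT proteins act on them through the element TTCNNNGAA or, with 1 base more between its arms and preferred by STAT6, TTCNNNNGAA. Both read the same on either strand and cannot coincide at the same start. The windows are the 250 bases before the start of the most counted coding transcript found in GENCODE M39, read 5′ to 3′ from GRCm39. Capitals mark the matches.
Socs1, chr16:10603876-10604125, minus strand: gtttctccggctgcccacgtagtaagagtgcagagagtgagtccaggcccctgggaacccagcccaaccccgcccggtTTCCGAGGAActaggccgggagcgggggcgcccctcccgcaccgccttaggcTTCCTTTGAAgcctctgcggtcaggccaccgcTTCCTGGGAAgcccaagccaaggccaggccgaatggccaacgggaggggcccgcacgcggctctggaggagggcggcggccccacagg
Socs3, chr11:117860124-117860373, minus strand: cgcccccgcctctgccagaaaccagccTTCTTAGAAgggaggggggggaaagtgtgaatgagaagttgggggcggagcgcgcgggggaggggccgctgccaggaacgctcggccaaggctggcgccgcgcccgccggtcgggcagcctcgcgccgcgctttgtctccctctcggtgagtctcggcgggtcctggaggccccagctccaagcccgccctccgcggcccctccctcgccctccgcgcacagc
Cish, chr9:107172975-107173224, plus strand: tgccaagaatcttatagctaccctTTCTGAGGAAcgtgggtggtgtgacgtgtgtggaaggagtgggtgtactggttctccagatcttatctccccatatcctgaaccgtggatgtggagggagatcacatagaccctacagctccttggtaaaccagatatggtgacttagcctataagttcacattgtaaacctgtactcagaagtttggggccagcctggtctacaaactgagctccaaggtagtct
The Socs1 window held 3 matches to TTCNNNNGAA, starting 172, 120 and 88 bases before the transcript start, and none to TTCNNNGAA. The Socs3 window held 1 match to TTCNNNGAA, 223 bases before the start, and the Cish window 1 match to TTCNNNNGAA, 226 bases before it. Of the STAT genes, Stat2 alone had a match, 1 to TTCNNNNGAA, 195 bases before its start. Among 21770 promoters of protein-coding genes, 7.82% held at least 1 TTCNNNGAA and 5.97% at least 1 TTCNNNNGAA. These were the 250 bases before the outermost annotated start of each gene. They differ from the windows above where the most counted transcript starts inside the gene, as that of Socs3 does. Only 1 of the 21770, which is Socs1 itself, held 3 or more TTCNNNNGAA. A match is a description of the letters and no measure of binding.

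Some of the genes sit close together (loci and identifiers from GENCODE M39). On chromosome 11 of GRCm39, Stat5b (ENSMUSG00000020919.13, chr11:100671556-100741589, minus strand) lies 8587 bases from Stat5a (ENSMUSG00000004043.16, chr11:100750177-100776065, plus strand). Stat5a overlaps the end of Stat3 (ENSMUSG00000004040.18, chr11:100775924-100830450, minus strand) by 142 bases, and Socs3 (ENSMUSG00000053113.5, chr11:117856905-117860898, minus strand) is on the same chromosome. Stat6 (ENSMUSG00000002147.20, chr10:127477821-127496862, plus strand) and Stat2 (ENSMUSG00000040033.19, chr10:128106352-128128735, plus strand) are 609489 bases apart. Stat4 (ENSMUSG00000062939.13) lies at chr1:52026307-52151423 on the plus strand, Socs1 (ENSMUSG00000038037.7) at chr16:10600104-10603875 on the minus strand and Cish (ENSMUSG00000032578.8) at chr9:107173225-107179983 on the plus strand.

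Stat5a and Stat5b are near copies, and their coding sequences were identical at 2125 of 2394 aligned positions (88.8%), with 1 identical run of 324 bases. The 90-base stretch where they differ most is shown because it is the kind of sequence by which reads of these genes can be told apart. It covers coding bases 88 to 177, which span an intron in both genes, and capitals mark the 28 bases that differ.
Stat5a, chr11:100752251-100752595, plus strand: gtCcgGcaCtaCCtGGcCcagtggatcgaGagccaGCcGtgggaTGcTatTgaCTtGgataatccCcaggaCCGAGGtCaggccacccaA
Stat5b, chr11:100695804-100699262, minus strand: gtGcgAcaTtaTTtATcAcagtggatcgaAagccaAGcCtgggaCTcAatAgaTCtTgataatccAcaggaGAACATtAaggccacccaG
Of the 31-base words of the leading Stat5a transcript, 21.0% also occurred in the leading Stat5b transcript, as did 16.5% the other way round. Reads from such stretches are divided between the genes by the quantification model, so their separate values carry an uncertainty that their sum does not.

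Socs3, the inhibitor that binds gp130 and blocks STAT3 activation, had the highest level of the 9 genes, with a mean of 156 TPM over the 6 libraries. Stat3 followed at 90.6 TPM and Stat6 at 54.6 TPM, and the ranges of these 3 genes were apart from each other and from the rest. Stat2 at 20.7 TPM, Stat5a at 16.1 TPM and Stat5b at 12.1 TPM formed a middle tier. Stat2 exceeded Stat5a in 5 of 6 libraries and Stat5a exceeded Stat5b in 6 of 6, but the ranges of each pair overlapped. Cish at 2.79 TPM, Stat4 at 2.67 TPM and Socs1 at 2.38 TPM were lowest and could not be put in order, since each exceeded the next in 3 of 6 libraries.

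**Figure D1:**
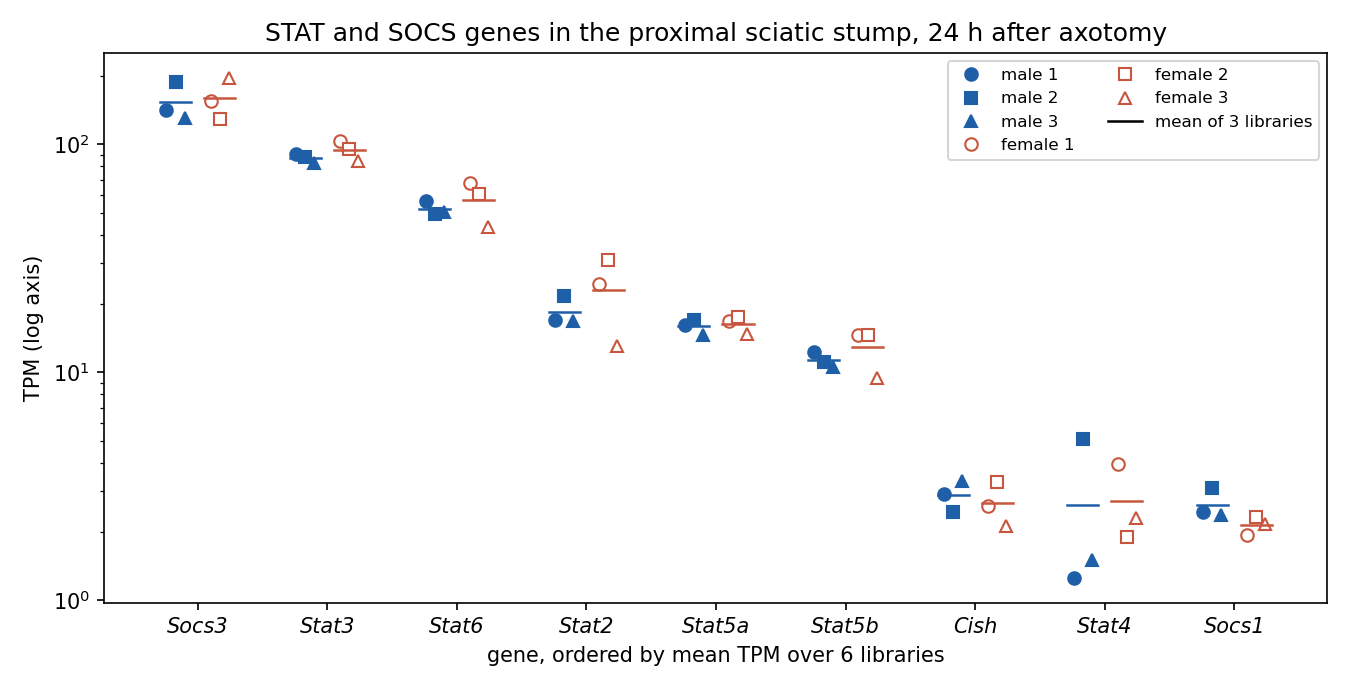
TPM of the 9 genes on a log axis, ordered by mean level; each point is 1 library (filled blue, males; open red, females) and each short line the mean of 3. Levels run from Socs3 at 156 TPM to Socs1 at 2.38 TPM, and the points of the sexes intermingle for every gene except Socs1.

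Stat3 was the most abundant STAT transcript in every library. It made up 46.7%, 45.8% and 46.9% of the summed TPM of the 6 Stat genes in males 1 to 3 and 44.8%, 43.0% and 50.4% in females 1 to 3. The male values fell inside the female range, and the difference of the means was 0.42 percentage points (exact permutation test, two-sided, p = 0.9; the smallest p that 3 against 3 libraries can give is 0.1). Stat6 contributed between 25.7% and 29.3% in every library. The summed level was 188 ± 9.16 TPM in males and 206 ± 34.2 TPM in females (SD, n = 3 each), with overlapping ranges.

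The comparison of the sexes asked whether the level of any of these genes differed between male and female stumps. None did by the test: 0 of 9 had an edgeR adjusted p under 0.1, against 975 of 18396 genes tested (5.30%). That number rested on single libraries and on the design, with 1 gene called without female 1, 7 without male 3, 325 without female 2, 643 without male 1, 2609 without female 3 and 56 with the replicate number as a block. At an unadjusted p under 0.05 there were 0 of 9, against 20.7% of all genes, and DESeq2 and limma-voom also called 0 of 9. Counts scaled by normalised library size (CPM) overlapped between the sexes for all 9 genes, whereas 25.5% of tested genes did not overlap. In TPM, 1 of 9 did not overlap, against 21.0% of tested genes. The log2 fold changes, male minus female, ran from -0.21 to 0.22 with a median of -0.07, and the median over all tested genes was -0.03. Without female 3 and male 1 the values were -0.13 for Stat2, -0.08 for Stat3, -0.10 for Stat4, -0.0026 for Stat5a, -0.43 for Stat5b, -0.29 for Stat6, 0.31 for Socs1, 0.04 for Socs3 and -0.24 for Cish, and 1 of them, that of Stat5b, passed.

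**Figure D2:**
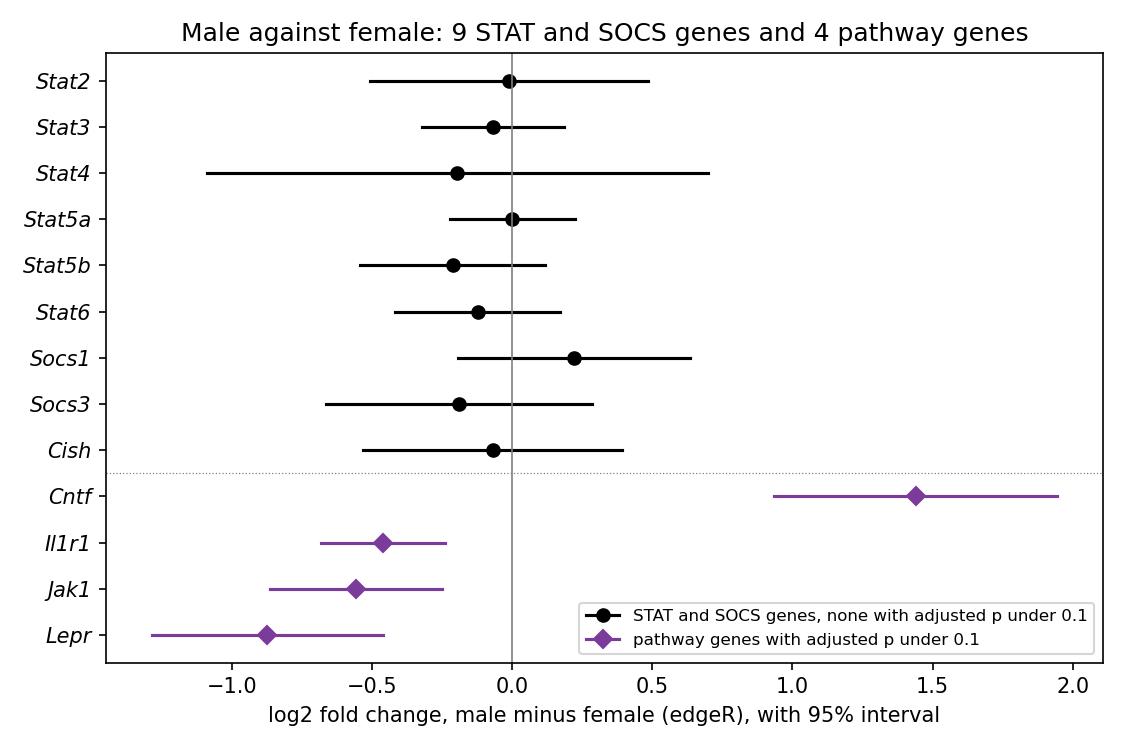
Log2 fold change, male minus female, with its 95% interval from edgeR, for the 9 STAT and SOCS genes (black circles) and the 4 pathway genes with an adjusted p under 0.1 (purple diamonds). The intervals of all 9 include 0, and that of Stat4 is the widest, from -1.09 to 0.70, whereas Cntf lies to the right of 0 and Il1r1, Jak1 and Lepr to the left.

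Stat3, the main transducer of interleukin-6 family cytokines and a gene tied to axon regrowth, was among the steadiest. Its level was 293, 283 and 259.5 CPM in males 1 to 3, against 301, 273 and 302 CPM in females 1 to 3. Its coefficient of variation over the 6 libraries was 5.93%, and the lowest value, in male 3, and the highest, in female 3, differed 1.16-fold. The log2 fold change was -0.07 ± 0.11 (SE; edgeR adjusted p = 0.759), with a 95% interval of the fold from 0.800 to 1.14.

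Most of the Stat3 level came from its full-length form. The transcript that encodes 770 residues carried 88.6%, 91.1% and 89.7% of Stat3 TPM in males and 80.4%, 83.4% and 90.5% in females. The transcript of the shorter protein of 722 residues (STAT3 beta, which lacks the end of the transactivation domain) carried 0.65% to 1.0% in males and 0.82% to 1.17% in females. Retained-intron models, which encode no protein, carried 8.50%, 7.45% and 8.53% in males and 14.2%, 12.8% and 7.34% in females. Females 1 and 2 were lowest for the full-length form and highest for the retained-intron models, and the ranges of the sexes overlapped for all of these.

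Stat5a and Stat5b, which transmit signals of growth hormone, prolactin and several interleukins, had coefficients of variation of 5.48% and 15.0% over the 6 libraries. Stat5a was at 42.7, 44.9 and 38.5 CPM in males and 43.3, 40.3 and 42.4 CPM in females. Female values lay inside the male range, and the log2 fold change was 0.0014 ± 0.10 (edgeR adjusted p = 0.996), the fold lying between 0.857 and 1.17 at 95% confidence. Its sign rested on single libraries: the value was -0.01 without male 1, -0.02 without male 2 and -0.03 without female 2.

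Stat5b had 46.4, 40.5 and 38.3 CPM in males, against 53.7, 52.2 and 39.2 CPM in females. Females 1 and 2 were above every male and female 3 lay among the males. On the log2 scale the difference was -0.21 ± 0.14 (edgeR adjusted p = 0.431), with a 95% interval from -0.54 to 0.12. Without female 3 it was -0.34 (edgeR adjusted p = 0.121), and without both female 3 and male 1 it was -0.43 (edgeR adjusted p = 0.0946), the single setting of 15 in which any of the 9 genes passed the threshold. Other settings brought it nearer to 0, at -0.13 without female 1 (edgeR adjusted p = 0.788), -0.15 without male 3 and -0.13 with an offset for transcript length. The 95% interval from all libraries thus reached a fold of 0.686.

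Because reads can pass between the 2 genes, their balance was compared as well. Stat5a made up 56.9%, 60.4% and 58.1% of the Stat5a plus Stat5b TPM in males and 53.5%, 54.7% and 61.0% in females. Female 3 had the highest share and females 1 and 2 the lowest. The means were 58.5 ± 1.77% in males and 56.4 ± 4.05% in females (SD, n = 3 each), a difference of 2.06 percentage points (exact permutation test, two-sided, p = 0.5, with 0.1 the smallest possible). From counts in place of TPM the difference was 3.50 percentage points (exact permutation p = 0.3). The difference in TPM was 0.60 percentage points without female 1, 1.10 without male 2, 1.21 without female 2, 4.37 without female 3 and 5.15 without female 3 and male 1.

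Stat6, the transducer of interleukin-4 and interleukin-13, stood at 146, 126 and 122 CPM in males and 161, 142 and 127 CPM in females. Female 1 was highest and male 3 lowest, with the other libraries between them. Stat6 had a log2 fold change of -0.12 ± 0.13 (edgeR adjusted p = 0.620), or -0.29 (edgeR adjusted p = 0.216) without female 3 and male 1. It was -0.03 without female 1, -0.06 without male 2, and -0.07 both without male 3 and with an offset for transcript length. Coding transcripts carried 80.3% to 86.5% of its TPM.

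Stat2, which with IRF9 drives the response to type I interferons, varied more between libraries than between sexes. It had 49.4, 63.5 and 47.2 CPM in males and 49.3, 71.6 and 40.6 CPM in females, so that the highest and the lowest library were both female. The log2 fold change was -0.01 ± 0.21 (edgeR adjusted p = 0.981) and the 95% interval of the fold ran from 0.703 to 1.40. Its sign turned without male 1 (0.04), without male 3 (0.07) and without female 2 (0.25), and none of these passed the test.

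The libraries highest in Stat2 CPM were also those highest in the summed TPM of interferon-induced genes. The 12 genes of that list, which include Irf9, Isg15 and the Ifit genes, summed to 415, 572 and 321 TPM in males 1 to 3 and to 264, 631 and 255 TPM in females 1 to 3. Female 2 and male 2 were first and second in both measures, male 1 came next in both and female 3 last in both, and only female 1 and male 3 changed places. Ifit3, an antiviral effector gene, had 92.0, 105.5 and 73.6 CPM in males and 44.0, 138 and 55.8 CPM in females. The 2 protein-coding genes whose CPM pattern over the 6 libraries came nearest to that of Stat2 were Irgm1, an interferon-induced GTPase gene, and Trex1, a DNA exonuclease gene, with root mean square differences of 0.07 and 0.08 on the log2 scale. The spread of Stat2 itself on that scale was 0.27, and 13473 genes were searched.

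Part of the Stat2 TPM came from short transcript models that keep an intron and encode no protein. These 6 models, 459 to 1873 bases long, carried 22.7%, 18.3% and 21.8% of Stat2 TPM in males and 49.8%, 36.6% and 24.8% in females. Every male was below every female. Of 7321 genes with both kinds of transcript and at least 1 TPM in every library, 13.0% were lower in all males and 4.81% higher in all males. The median share over those genes was 4.35%, 4.49% and 4.66% in males and 7.51%, 6.77% and 4.50% in females, so that females 1 and 2 stood high there also. Of all TPM in a library, retained-intron models carried 3.89%, 4.63% and 3.99% in males and 4.84%, 4.40% and 3.46% in females. On that measure male 2 was above female 2.

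As counts these models were few, at 177, 113 and 93.0 in males and 378, 347 and 131 in females. That was 5.30%, 3.16% and 3.84% of Stat2 counts in males and 15.0%, 8.58% and 5.14% in females, and on this scale male 1 and female 3 overlapped. The TPM of the coding Stat2 transcripts alone was 13.1, 17.6 and 13.1 in males and 12.2, 19.8 and 9.84 in females, a difference of the means of 0.66 TPM (exact permutation test, two-sided, p = 0.8, smallest possible 0.1). The part of RNA quality or unspliced RNA in this pattern was not tested.

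**Figure D3:**
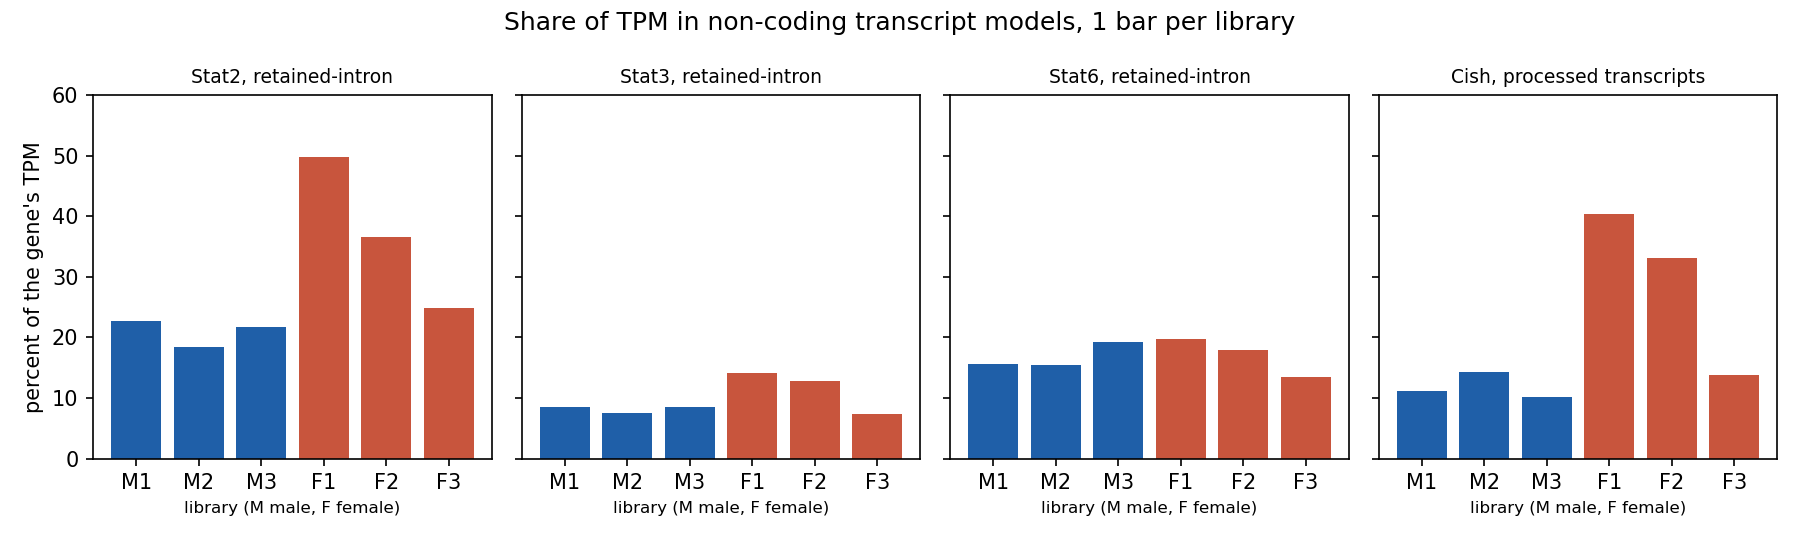
Percent of a gene's TPM in transcript models without a protein, 1 bar per library (blue, males; red, females): retained-intron models of Stat2, Stat3 and Stat6, and processed transcripts of Cish. For Stat2 the males reach 22.7% and the females start at 24.8%; for Cish, females 1 and 2 stand above the other 4 libraries.

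Stat4, known from interleukin-12 signalling in T and NK lymphocytes, was near the lower end, at 165, 336 and 152 counts in males and 315, 192 and 218 counts in females. These were 2.45, 5.96 and 2.96 CPM in males and 6.15, 3.40 and 3.47 CPM in females. Female 1 and male 2 stood above the other 4 libraries. Its log2 fold change was -0.20 ± 0.39 (edgeR adjusted p = 0.808), and the 95% interval of the fold, from 0.470 to 1.62, was the widest of the 9 genes. Its sign turned without male 1 (0.04) and without female 1 (0.14).

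Markers of T and NK lymphocytes summed to 9.43, 11.5 and 5.24 TPM in males and 18.2, 16.5 and 8.07 TPM in females, with 0 of 9 called. Female 1 was highest there, and male 2 was highest of the males. However, female 2 was second for these markers and the lowest female for Stat4 CPM. Female 1 was also highest for the macrophage and adipocyte markers. Of the Stat4 TPM, the retained-intron models carried 51.0% in male 2, 38.5% in female 3, 15.3% in female 1 and 0 in the other 3 libraries. In male 2 this rested on 46.1 estimated counts and in female 3 on 16.3.

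Socs3 was at 244, 299 and 216 CPM in males 1 to 3 and 283, 219 and 363 CPM in females 1 to 3. Female 3 was highest and male 3 lowest, 1.68-fold apart, and the sexes overlapped. The log2 fold change was -0.19 ± 0.20 (edgeR adjusted p = 0.637), with a 95% interval of the fold from 0.631 to 1.22. Female 3 set the sign: without it the value was 0.01 (edgeR adjusted p = 0.975), and without both female 3 and male 1 it was 0.04 (edgeR adjusted p = 0.942). Its only coding transcript carried 98.0% to 99.5% of Socs3 TPM.

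The 6 libraries stood in the same order by Socs3 CPM as by the summed TPM of neutrophil markers. The 7 neutrophil markers, among them S100a8, S100a9 and Csf3r, summed to 1651, 2678 and 808 TPM in males and to 2519.9, 926 and 3000.3 TPM in females. Female 3 came first in both measures, followed by male 2, female 1, male 1, female 2 and male 3, and the order also held within each sex. Of 18396 tested genes, 77 (0.419%) had CPM in that order. This was the 1 such match among 135 pairs of a gene and a list, and it was singled out after the values were seen. In TPM the match was not complete: Socs3 was at 131 in male 3 and 128 in female 2, so these libraries changed places. Of the 7 markers 0 were called between the sexes, and the part of neutrophils in the Socs3 level was not tested.

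**Figure D4:**
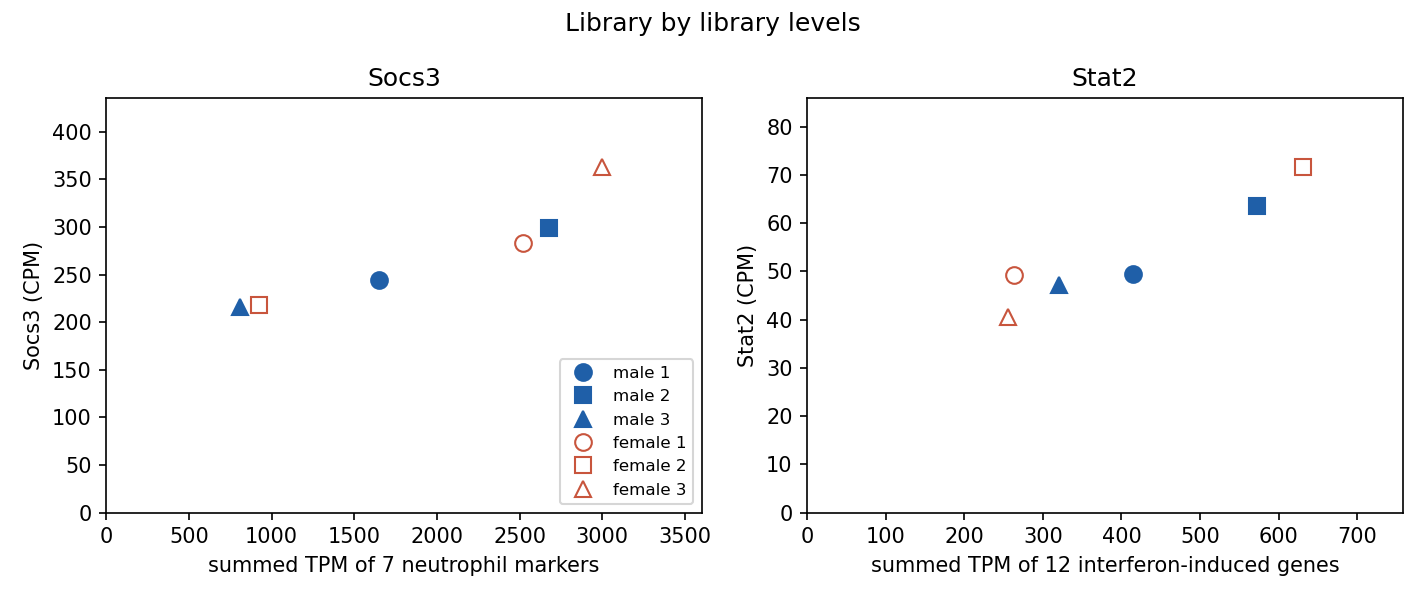
Left, Socs3 (CPM) against the summed TPM of 7 neutrophil markers; right, Stat2 (CPM) against the summed TPM of 12 interferon-induced genes; each point is 1 library (filled blue, males; open red, females). Socs3 runs from 216 CPM in male 3 to 363 CPM in female 3 in the order of the markers, and Stat2 is highest in female 2 and male 2.

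The gene whose pattern came nearest to that of Socs3 was Timp1, which encodes an inhibitor of matrix metalloproteinases. Timp1 had 419, 526 and 371 CPM in males and 532, 362 and 644 CPM in females, and its root mean square difference from Socs3 on the centred log2 scale was 0.06, where the spread of Socs3 was 0.27. The kinase gene Nek6 was second, also at 0.06. Socs3 TPM was 1.57, 2.13 and 1.57 times Stat3 TPM in males and 1.49, 1.35 and 2.32 times in females. Male 2 and female 3 had the highest ratios, and the difference of the means was 0.04 (exact permutation test, two-sided, p = 0.8, smallest possible 0.1).

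Socs1, which inhibits JAK kinases directly and restrains interferon signalling, had 4.36, 5.33 and 4.08 CPM in males and 3.59, 3.99 and 4.23 CPM in females. Males 1 and 2 were above every female and male 3 was below female 3. The log2 fold change of 0.22 ± 0.18 (edgeR adjusted p = 0.520) was the largest positive value of the 9. In TPM the males, at 2.43, 3.10 and 2.36, were all above the females, at 1.93, 2.31 and 2.17. These levels came from 184 to 301 counts per library.

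Cish, the founding member of the family and a target and inhibitor of STAT5, had 6.40, 5.23 and 6.61 CPM in males and 6.17, 7.82 and 5.15 CPM in females. Female 2 was highest and female 3 lowest. The difference was -0.07 ± 0.20 on the log2 scale (edgeR adjusted p = 0.870). It turned to 0.06 without male 2, to 0.10 without female 2 and to 0.17 (edgeR adjusted p = 0.658) with an offset for transcript length, so that no direction was settled.

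Cish also split between transcripts. A processed transcript of 4697 bases and a short one of 371 bases together carried 11.1%, 14.2% and 10.2% of Cish TPM in males and 40.4%, 33.1% and 13.7% in females. Females 1 and 2 stood apart, and female 3 lay among the males. The coding transcripts were at 2.60, 2.09 and 3.00 TPM in males, against 1.55, 2.22 and 1.83 TPM in females (exact permutation test, two-sided, p = 0.2, smallest possible 0.1), and male 2 was below female 2.

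The genes around the 9 members were read from lists of kinases, further inhibitors, receptor chains, ligands and linked targets, 105 genes in all. Of these, 96 were tested and 4 passed: 1 was higher in males (3.84% of all tested genes were) and 3 were lower in males (1.46% of all tested genes were). At an unadjusted p under 0.05 there were 2 higher and 14 lower in males, against 11.0% and 9.69% of all tested genes. For 12 of the 96 genes, male and female CPM did not overlap, against 25.5% of all tested genes. The median log2 fold change was -0.12, beside -0.03 over all tested genes.

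**Figure D5:**
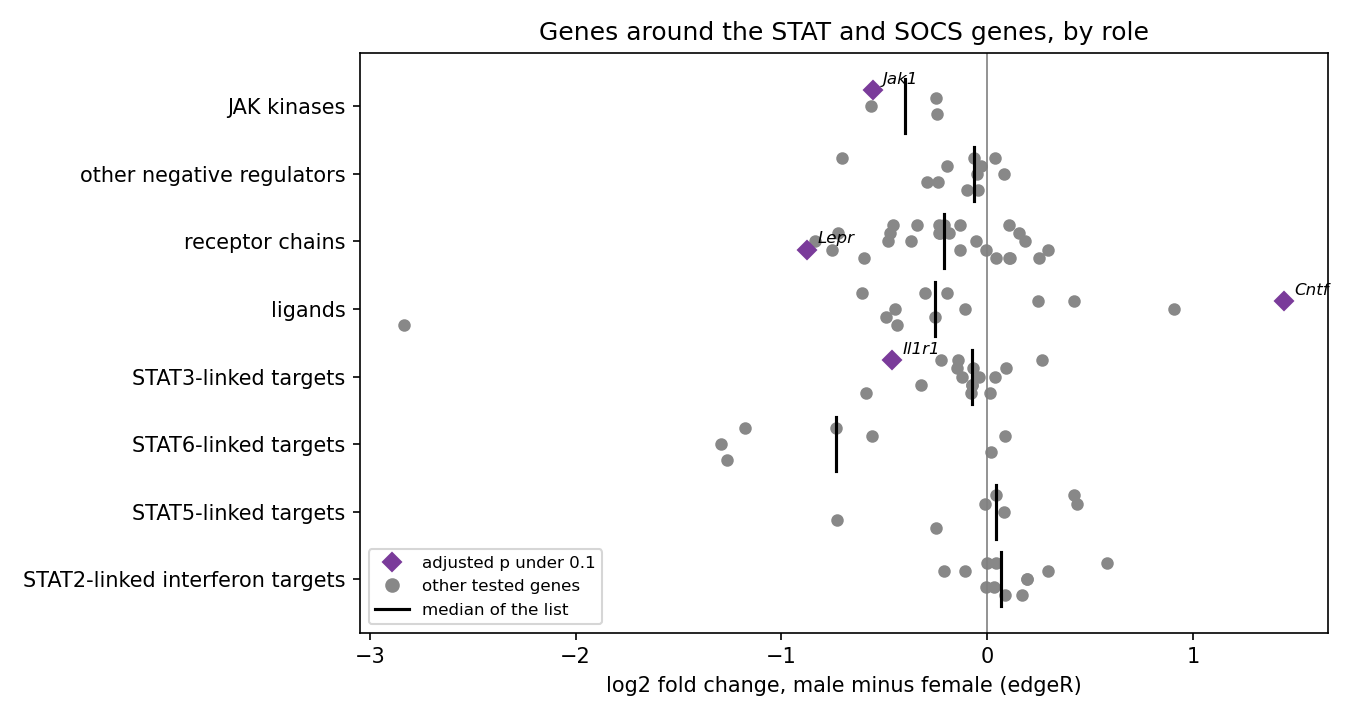
Log2 fold change, male minus female, of each tested gene by role (purple diamonds, adjusted p under 0.1; grey, other genes; black line, median of the list). The STAT6-linked targets have the lowest median, -0.73, and the JAK kinases follow at -0.40; Osm is in 2 lists.

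All 4 JAK kinase genes had negative values and 1 passed. Jak1, the kinase shared by gp130, interferon and interleukin-2 family receptors, was lower in males, at 152, 138 and 138 CPM, against 238, 217 and 176 CPM in females. The highest male was below the lowest female, and the log2 fold change was -0.56 ± 0.13 (edgeR adjusted p = 0.0837). The call rested on every library but female 3: the adjusted p was 0.140 without male 1, 0.145 without male 2, 0.287 without male 3, 0.256 without female 1 and 0.181 without female 2, and 0.0435 without female 3. It was 0.0599 without female 3 and male 1. Jak2 had a log2 fold change of -0.25 ± 0.11 (edgeR adjusted p = 0.270).

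Of the 11 further negative regulators, 0 passed, and 2 were under an unadjusted p of 0.05. The phosphatase gene Ptpn11, the most abundant of them, was at -0.05 ± 0.10 and Socs5 at -0.10 ± 0.17 on the log2 scale. Ptpn6, the phosphatase of blood cells, had 38.1, 54.9 and 33.3 CPM in males and 87.2, 64.6 and 54.0 CPM in females. Male 2 was just above female 3, and the log2 fold change was -0.71 ± 0.23 (edgeR adjusted p = 0.150). Ptpn6 did pass by DESeq2 (adjusted p = 0.0324), with no filter on low counts (edgeR adjusted p = 0.0742), without male 2 (edgeR adjusted p = 0.0901) and without female 3 (edgeR adjusted p = 0.0841), and in the other settings its adjusted p lay between 0.141 and 0.417.

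Among 27 receptor chains, 1 passed. Lepr, the leptin receptor gene, which signals through STAT3, was lower in males, at 49.8, 31.6 and 44.8 CPM, against 67.7, 87.2 and 76.5 CPM in females. The ranges were apart and the log2 fold change was -0.87 ± 0.18 (edgeR adjusted p = 0.0595). The adjusted p was 0.193 without male 3, 0.170 without female 1 and 0.146 without female 2, and 0.0706 without female 3 and male 1. Adipocyte markers summed to 102, 543 and 237 TPM in males and 1299, 778 and 152 TPM in females, with 0 of 7 called, and their part in the Lepr level was not tested. Il6st, which encodes gp130, was the most abundant chain at 187 TPM, with a log2 fold change of -0.23 ± 0.18, followed by Il11ra1 at 116 TPM and 0.19 ± 0.10.

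Of 20 ligands, 13 were tested and 1 passed. Cntf, a Schwann cell factor that signals through gp130 to STAT3, was higher in males, at 634, 475 and 729 CPM, against 203, 286 and 189 CPM in females. The ranges were apart, as those of 7 of the 9 Schwann cell markers and of 25.5% of all tested genes were. The log2 fold change was 1.44 ± 0.22 (edgeR adjusted p = 0.0357). The adjusted p was 0.145 without male 3, 0.163 without female 1 and 0.0722 without female 3 and male 1, and the part of Schwann cell content in this difference was not tested. The ligands Il4, Il13, Il5, Il2, Csf2, Ifng and Ifnb1 did not pass the filter, with 0 to 44 counts each over all 6 libraries.

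Linked targets were listed by factor. Of 16 tested STAT3-linked genes 1 passed, Il1r1, the interleukin-1 receptor gene, with 117, 113 and 105 CPM in males and 161, 149.5 and 150.3 CPM in females and a log2 fold change of -0.46 ± 0.10 (edgeR adjusted p = 0.0621). The adjusted p was 0.110 without male 1, 0.111 without male 2, 0.271 without male 3, 0.215 without female 1, 0.138 without female 2 and 0.0797 without female 3 and male 1. Timp1, the most abundant target, was at -0.23 ± 0.23 and the survival gene Mcl1 at -0.04 ± 0.13. Of the 7 STAT5-linked genes 0 passed, with Igf1 at -0.25 ± 0.13 (-0.52 with an offset for transcript length and -0.12 without female 2), Ccnd2 at -0.01 ± 0.11 and Pim2 at 0.44 ± 0.18. Of the 12 interferon-induced genes 0 passed and 0 were under an unadjusted p of 0.05, with Isg15 at 0.58 ± 0.36 and Ifit3 at 0.19 ± 0.39.

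The STAT6-linked genes, which are markers of alternatively activated macrophages, had the lowest median, -0.73, but 0 of 7 passed and 3 were under an unadjusted p of 0.05. The list was not uniform: 5 values were negative and 2 positive, from -1.29 to 0.09. Mrc1, the mannose receptor gene, had 131, 179.8 and 143 CPM in males and 553, 339.7 and 197 CPM in females, with a log2 fold change of -1.27 ± 0.34 (edgeR adjusted p = 0.104). Chil3, a chitinase-like gene, had 78.5, 104 and 43.3 CPM in males and 276, 162 and 116 CPM in females, with -1.29 ± 0.38 (edgeR adjusted p = 0.127). In both, every male was below every female in CPM and female 1 was highest. In TPM the sexes overlapped for Mrc1, with male 2 at 113 and female 3 at 89.4. Arg1, the arginase gene, had 411, 449 and 235 CPM in males and 824, 404 and 594 CPM in females, with -0.73 ± 0.31 (edgeR adjusted p = 0.237), and its ranges overlapped. DESeq2 gave adjusted p-values of 0.00105 for Mrc1, 0.0849 for Chil3 and 0.0837 for Arg1. Mrc1 and Chil3 also passed with no filter on low counts (edgeR adjusted p of 0.0270 and 0.0391) and without female 3 (0.0435 and 0.0680), and Mrc1 without female 3 and male 1 (0.0621). With an offset for transcript length Mrc1 was at -0.51 (edgeR adjusted p = 0.280), and without female 1 it was at -0.83 (0.264) and Chil3 at -0.89 (0.368). Arg1 was at -0.45 without female 1 and -0.50 without male 3. Macrophage markers, of which Mrc1 is one, had a median of -0.55, with 0 of 7 called, and their part in these values was not tested. Stat6 itself, at -0.12, did not pass under any setting tried.

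The remaining members had these nearest patterns over the 6 libraries, by the same measure: Nadk and Rnaseh2a for Stat3 (0.01 and 0.02), Brpf3 and Rab43 for Stat5b (0.03 and 0.04), Git2 and Txlna for Stat6 (0.03 each), Mrps18a and Tbc1d10b for Stat5a (0.02 each). Those of Socs1 were 9130023H24Rik and Ly96 (0.02 and 0.04), those of Cish Agbl5 and Sh3rf3 (0.04 each), and those of Stat4 C130050O18Rik and Exoc3l2 (0.14 and 0.15). With so many genes searched over 6 libraries, such likeness describes the libraries alone.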

How the data were processed

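The submitters' processing notes name Trimmomatic 0.39, Salmon 1.5.2 and MultiQC 1.9, and the methods of the study name GENCODE M29 (GRCm39) and a strand-specific poly-A kit. The sources used here differ on the release of GENCODE and the version of Salmon. The authors deposited Salmon's output for 140789 transcripts per library: an estimated count, which need not be whole and is not normalised, a TPM value, which is corrected for length and sums to 1000000 per library, and the effective length (which served only as an offset in 1 alternative). In these deposited files, reads that match several transcripts are shared among them by a model. Estimated counts and TPM were summed per gene symbol, and counts were rounded. In R 4.3.3, edgeR 4.0.16 filtered genes (filterByExpr, 18396 kept of 30821 with a count), normalised them by TMM and tested sex as the only term with the quasi-likelihood F test. The Benjamini-Hochberg adjustment ran over all tested genes, and the threshold of 0.1 is that of the study. CPM used a TMM library size, and likeness log2 CPM with a prior count of 2. Shares were compared by exact permutation.

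The 9 members and all lists were chosen with earlier results of these data known. Genes named beyond the members were, per list, those called, the 2 most abundant and the 1 with the smallest p, and the 2 nearest patterns per member. A gene that this rule gave is not reported here. Alternatives were DESeq2 size factors, library size alone, DESeq2 1.42.0, limma-voom (3.58.1), 2 other filters, a length offset, the replicate number as a block, an adjusted p under 0.05 and libraries left out. No 2 libraries were copies. The scripts were tested on simulated data in which 200 of 18396 genes were changed. There edgeR called 70% of the 2-fold and 100% of the 4-fold changes, with 34 false calls. DESeq2 called 85% and 100%, with 93 false calls, and limma-voom 70% and 100%, with 27. Loci, promoters and coding sequences came from GENCODE M39 on GRCm39, a later release than that of the study.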

Additional observations from a re-analysis of the deposited data

How the results depend on the processing

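Each of the 9 STAT and SOCS genes was refitted under 15 settings, and 0 passed the threshold in any but 1: without female 3 and male 1 together 1 was called, Stat5b. Of the pathway genes, 4 were called, and 15 by DESeq2, 9 with no filter on low counts, 9 without female 3 and male 1, 1 at an adjusted p under 0.05 and 0 to 12 with single libraries left out. Over all genes 975 were called, and 2432 by DESeq2, 1614 with no filter, 1991 without female 3 and male 1, 279 at an adjusted p under 0.05 and 1 (without female 1) to 2609 (without female 3) with single libraries left out. With the replicate number as a block, 56 genes, 0 pathway genes and 0 members were called. The deviations of same-numbered libraries from the mean of their sex had correlations of -0.04, -0.30 and -0.30. With 3 libraries per sex, these values cannot settle whether the numbers pair the libraries.

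The cause of these changes was not tested. On the log2 scale and male minus female, signs turned for Stat2 (0.017 with limma-voom, 0.011 with at least 1 CPM in 3 libraries, 0.016 with the replicate block), Stat5a (-0.045 with library size alone, -0.00040 with limma-voom, -0.0011 with the block, -0.0026 without female 3 and male 1), Socs3 (0.037 without female 3 and male 1) and Cish (0.17 with the length offset). They also turned for Ccnd2 (0.011 with at least 1 CPM, 0.0090 with the length offset) and, without female 3 and male 1, for Socs5 (0.15), Timp1 (0.0040), Mcl1 (0.048) and Ifit3 (-0.019). None of these values passed the threshold. With single libraries left out, Stat2 ran from -0.18 to 0.25, Stat4 from -0.65 to 0.14, Stat5a from -0.030 to 0.064, Stat5b from -0.34 to -0.13, Stat6 from -0.21 to -0.03, Socs3 from -0.36 to 0.013 and Cish from -0.20 to 0.10. In the same way Ptpn11 ran from -0.074 to 0.044, Socs5 from -0.23 to 0.11, Mcl1 from -0.12 to 0.059, Ccnd2 from -0.064 to 0.083 and Ifit3 from -0.098 to 0.85. Of the calls over all genes 72.4% were higher in males, against 60.3% by DESeq2, 85.7% with the block, 51.6% without female 3 and 50.1% without female 3 and male 1. Stat4, Socs1 and Cish had 152 to 441 counts per library, and their SE was 0.39, 0.18 and 0.20. That of Socs3, which had 11060 to 22821 counts, was 0.20. The parts of low counts and of the spread between pools in these SE were not tested.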
